A study of Mus musculus with 3 samples.

Results

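The genes described here are 10 members of the Notch pathway: the receptors Notch1, Notch2, Notch3 and Notch4, the ligands Jag1, Jag2 and Dll1, and the target genes Hes1, Hey1 and Hey2. Every non-control probe that carries one of these names on the arrays was taken, which gave 12 of the 41174 probes. Of the 10 genes, 8 had 1 probe, and Notch1 and Jag1 had 2 each. Their RNA was measured in EpH4-PR cells, which are EpH4 cells of the mouse mammary epithelium stably transfected with the A form of the progesterone receptor (PR-A) and selected as clones with neomycin. The cells were grown in DMEM with 10% FBS to about 75% confluence, and the labels name no hormone treatment. RNA of EpH4-PR cells was labelled with Cy5 on each of 3 arrays and a commercial mouse reference RNA (Stratagene mouse standard) with Cy3, with no dye swap. Arrays of the empty vector line EpH4-EV were not analysed here, so each ratio is a level in EpH4-PR cells relative to the reference RNA and no effect of PR can be read from it. The sources do not say whether the 3 arrays hold separate cultures, so the p-values measure only the spread between these arrays, which may be technical. With 3 arrays, the precision of each ratio is limited by their number.

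Notch receptors are membrane proteins that are cut when a ligand of the Delta-like (Dll) or Jagged (Jag) family on a neighbouring cell binds them. The freed intracellular part enters the nucleus, joins the DNA-binding protein Rbpj and switches on target genes, among them the transcriptional repressors of the Hes and Hey families. In the mammary gland the pathway is known for its part in the choice between luminal and basal cell fates, and Notch4 was first found as a gene activated by mouse mammary tumour virus. Of the members, 8 genes had a promoter sequence in the RefSeq table used here (build GRCm38.p6), with 9 start sites in all. The target genes Hes1 and Hey1 had none there and were not searched. The 250 bases before each start were searched on both strands for GTGGGAA, the core of the Rbpj site, and for CACGTG, an E-box. The motifs can overlap, since CACGTG ends in the GTG with which GTGGGAA begins. GTGGGAA was found in 1 of the 9 stretches, that of Hey2, and in 5.4% of the 32851 promoters in the table, while CACGTG was found in 0 of the 9 and in 6.0% of all promoters. The Hey2 stretch (chr10:30842784-30843033, minus strand) is shown because it holds this match, which lies on the opposite strand between 207 and 201 bases before the start and is in capitals. Dll1 is shown because it had the highest ratio of the 12 probes, with its 2 start sites at chr17:15375824-15376073 and chr17:15376933-15377182 (both minus strand), in which no letters are in capitals. A match is only a run of letters, and no binding was measured here.
Hey2: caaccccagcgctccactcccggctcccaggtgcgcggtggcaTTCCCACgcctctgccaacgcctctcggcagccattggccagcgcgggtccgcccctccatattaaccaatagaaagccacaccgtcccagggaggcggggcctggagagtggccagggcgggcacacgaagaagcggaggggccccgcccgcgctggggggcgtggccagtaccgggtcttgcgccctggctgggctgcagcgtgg
Dll1, first site: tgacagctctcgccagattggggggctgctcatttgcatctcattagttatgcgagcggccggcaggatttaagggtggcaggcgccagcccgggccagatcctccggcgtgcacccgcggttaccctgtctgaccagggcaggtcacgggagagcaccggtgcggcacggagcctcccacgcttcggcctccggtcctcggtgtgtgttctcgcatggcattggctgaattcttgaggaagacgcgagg
Dll1, second site: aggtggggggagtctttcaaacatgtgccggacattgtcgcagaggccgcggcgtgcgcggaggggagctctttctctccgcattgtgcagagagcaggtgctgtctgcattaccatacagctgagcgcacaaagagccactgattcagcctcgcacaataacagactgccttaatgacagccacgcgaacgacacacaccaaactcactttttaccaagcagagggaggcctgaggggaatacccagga

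The arrays differed in brightness. The median intensity of all non-control spots was 112, 113 and 93.8 in Cy5 and 142, 140 and 108 in Cy3 on arrays 1, 2 and 3. The 314 negative control spots had a 95th percentile of 85.9, 87.4 and 62.9 in Cy5 and of 161.7, 168.3 and 106.8 in Cy3, and between 29603 and 30942 probes were well above background in Cy5. Across all probes, which are not independent replicates, the log2 ratios of array 3 had a Pearson correlation of 0.923 and 0.929 with those of arrays 1 and 2, which had one of 0.952 with each other. The epithelial label was checked with lists of marker genes: of 13 probes of 10 epithelial genes, 11 were higher than in the reference RNA, led by Cdh1 (mean log2 ratio 4.29), Krt7 (3.98 and 3.31) and Cldn3 (3.49), while Krt19 was lower (-2.62). Of 18 probes of 9 fibroblast and mesenchymal genes 0 were higher and 9 were lower, among them Vim (-6.51), and the leukocyte list had 0 of 14 higher and 4 lower. In the endothelial list, 0 of 11 probes were called. Kdr, Esam and 1 of 3 Vwf probes were well above background in Cy5 on all 3 arrays, Pecam1, Emcn and another Vwf probe on 1, and the other 5 probes, among them those of Cdh5, Tek and Tie1, on none. In the basal list the counts were 1 higher (Krt14, 2.08) and 2 lower, of Acta2 (-2.81 and -2.01 at 2 of its 5 probes), of 15 probes. The Acta2 probe at -2.81 was matched only through an older name, and that at -2.01 was well above background in Cy5 on 1 array. The remaining Acta2 probes gave 0.60, 0.00 and -0.16, so this gene had no clear direction.

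Of the 12 Notch probes, 8 lay above the 95th percentile of the negative controls in Cy5 on all 3 arrays, and 4 did so in the reference channel: Notch3, Hey1, 1 Notch1 probe and 1 Jag1 probe, which were above it in both. With the negative controls that the scanner software marks as outliers left out, an alternative chosen after seeing the data, 278, 278 and 287 controls remained and the counts were 11 in Cy5, 7 in the reference channel and 6 in both. By the flag of the scanner software, 9 probes of 8 genes were well above background in both channels on every array. The Notch1 probe A_51_P508510 reached a Cy5 intensity of 346.6 to 424.6, and the Jag1 probe A_52_P634090 one of 297.9 to 343.1. At the other end, Hey2 read 78.9, 81.3 and 62.6 in Cy5 on arrays 1, 2 and 3, below the 95th percentile of the negative controls on each (85.9, 87.4 and 62.9). The probes differ in sequence, so these intensities do not rank the genes by RNA level.

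**Figure D1:**
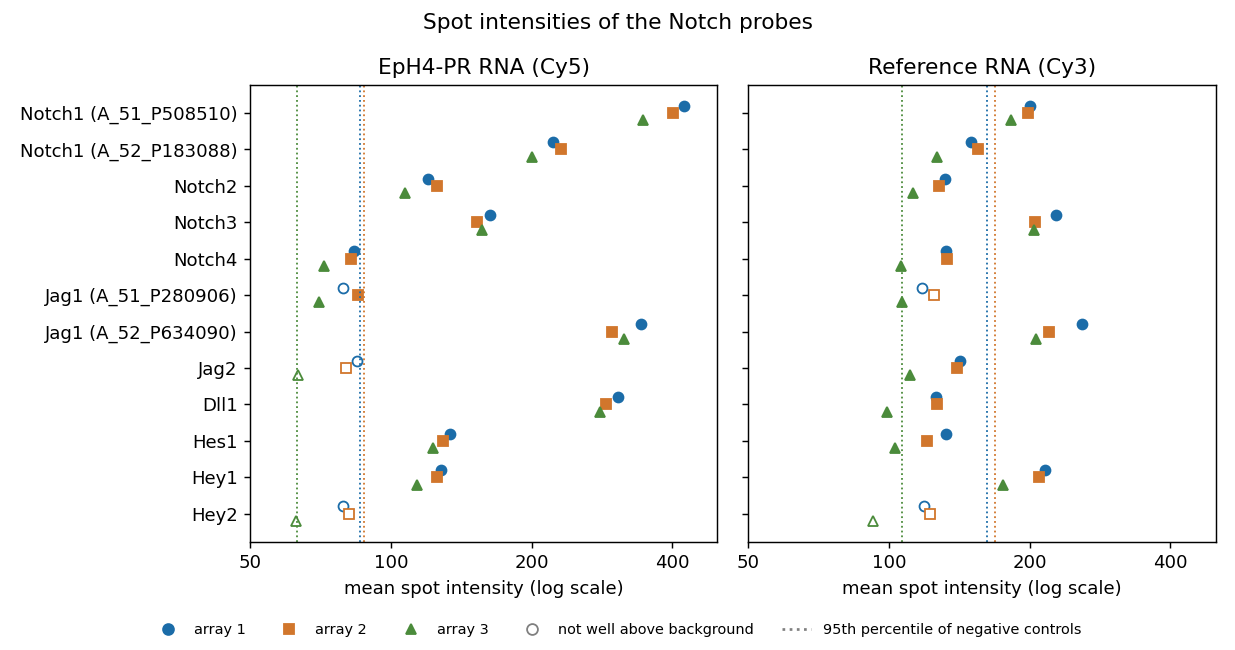
Mean spot intensity of the 12 Notch probes in the EpH4-PR channel (Cy5, left) and the reference channel (Cy3, right), on log axes, with 1 symbol for each array; open symbols mark spots not well above background and dotted lines the 95th percentile of all 314 negative controls of each array. Dll1 stands clear of that line in Cy5 (279.6 to 306) but not in Cy3 (99.1 to 126.9), and Hey2 lies below it in Cy5 (62.6 to 81.3) and in Cy3 (92.3 to 122.2).

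A probe was called where limma gave an adjusted p under 0.05 (Benjamini-Hochberg over all 41174 probes) and the mean log2 ratio was 1 or more, or -1 or less. By that rule 1 of the 12 Notch probes was higher in EpH4-PR RNA (Dll1) and 1 was lower (Hey1), against 2.25% of all probes higher and 3.85% lower (6.1% called in either direction). At an adjusted p under 0.05 with no limit on size, 4 of the 12 probes were higher (33.3%, both Notch1 probes, Dll1 and Hes1), against 25.7% of all probes and 34.1% of those well above background in both channels. By the same rule 5 were lower (41.7%, Notch3, Notch4, 1 Jag1 probe, Jag2 and Hey1), against 24.6% and 28.8%. These counts rest on limma. Both Notch1 probes, Hes1 and that Jag1 probe had an adjusted p above 0.05 by another test, given at the end. The median log2 ratio of the 12 probes was -0.04 and that of all probes -0.01. In these bulk samples, fewer cells that express a gene and less of its RNA per cell cannot be told apart.

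**Figure D2:**
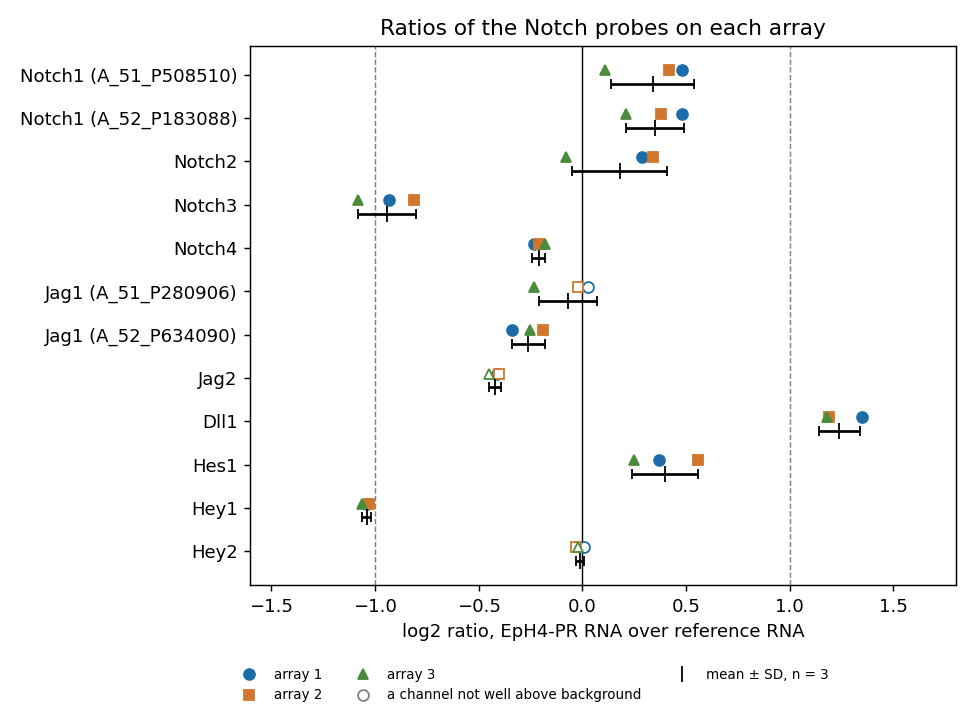
Log2 ratio of EpH4-PR RNA over reference RNA for the 12 Notch probes on each array (coloured symbols), with the mean and SD of the 3 arrays in black below; dashed lines mark a log2 ratio of 1 either way and open symbols a channel not well above background. Dll1 is above 1 on all 3 arrays (1.18 to 1.35) and Hey1 below -1 on all 3 (-1.06 to -1.03).

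Among the ligands, Dll1 was higher than in the reference RNA, while Jag2 and 1 of the 2 Jag1 probes were lower. Dll1, a transmembrane ligand of the Delta-like family, had Cy5 intensities of 306, 289.2 and 279.6 on arrays 1, 2 and 3 against Cy3 intensities of 125.8, 126.9 and 99.1. Its log2 ratio was 1.35, 1.19 and 1.18, a mean of 1.24 ± 0.10 (SD, n = 3, 95% interval 1.1 to 1.38, adjusted p = 6.76e-05 from limma). All 3 arrays lay above 1, and the ratio exceeded that of 98.3% of the probes that stood well above background in both channels. The reference spot of Dll1 was marked as well above background on every array, yet it lay below the 95th percentile of the negative controls on all 3. The ratio of Dll1 was 2.30 with a normexp offset of 0 in place of 50 in the background correction, and 2.70 with the log ratio that Feature Extraction, the scanner software, had computed.

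Jag1 and Jag2 encode the Jagged ligands. The brighter Jag1 probe, A_52_P634090, had log2 ratios of -0.34, -0.19 and -0.25 on arrays 1, 2 and 3, a mean of -0.26 ± 0.08 (SD, n = 3, limma adjusted p = 0.0101). All 3 values were below 0 and short of the limit of 1, and median centring in place of loess turned the mean to 0.56. Without array 1 the ratio was -0.22 and missed the test (limma adjusted p = 0.059). The other Jag1 probe, A_51_P280906, was well above background in Cy5 on 2 arrays and in Cy3 on 1, and it gave 0.03, -0.02 and -0.23 (mean -0.07 ± 0.14, SD, n = 3, limma adjusted p = 0.396, 95% interval -0.24 to 0.10). The lowest value of that probe (-0.23, array 3) lay within the range of the brighter one, and the other two lay above it. Jag2 was not well above background in EpH4-PR RNA on any array, with Cy5 intensities of 84.6, 80.1 and 63.3, but was so in reference RNA on all 3, with Cy3 intensities of 142.2, 140.1 and 110.7. The fold of Jag2 is therefore uncertain. Its mean log2 ratio was -0.42 (95% interval -0.53 to -0.31, adjusted p = 0.000994 from limma), or 1.34-fold lower in EpH4-PR cells. The limit computed from channel means was 1.34-fold as well. It rests on the same channels as the ratio, so it is no second measure and not a guaranteed minimum. That limit compares channel means of 6.07 and 6.49 log2 units, taken after loess and scaling of the arrays to a common brightness, and without a dye swap it is open to dye bias. The measured ratios of Jag2 were close together, at -0.41, -0.40 and -0.45, but their mean moved with the processing. It was -1.2 with a normexp offset of 0, -1.74 by Feature Extraction's own log ratio and -0.61 under median centring.

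The 4 receptors were spread on both sides of the reference RNA. Both Notch1 probes lay above 0 on every array. A_51_P508510 gave log2 ratios of 0.48, 0.42 and 0.11 (mean 0.34 ± 0.20, SD, n = 3, limma adjusted p = 0.0228). A_52_P183088 gave 0.48, 0.38 and 0.21 (mean 0.35 ± 0.14, SD, n = 3, limma adjusted p = 0.00831). The probes of Notch1 thus overlapped fully, and each was lowest on array 3. The adjusted p of A_51_P508510 was above 0.05 without array 1 (ratio 0.27, adjusted p = 0.0934 from limma) and without array 2 (0.29, adjusted p = 0.104 from limma), and below it without array 3 (0.45, adjusted p = 0.00225 from limma). Notch2 had ratios of 0.29, 0.34 and -0.08, so array 3 lay on the other side of 0 from the others, and the mean of 0.18 ± 0.23 (SD, n = 3) did not pass the test (adjusted p = 0.164 from limma, 95% interval -0.06 to 0.42). Without array 3 the ratio of Notch2 was 0.32 and passed the test (limma adjusted p = 0.00648), and without array 2 it was 0.11 (limma adjusted p = 0.509).

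Notch3 had the lowest ratio of the receptors. Its Cy5 intensities were 162.7, 153.1 and 156.3 on arrays 1, 2 and 3 and its Cy3 intensities 227.8, 205.2 and 204.2, all above the 95th percentile of the negative controls. The log2 ratios were -0.93, -0.81 and -1.08, a mean of -0.94 ± 0.14 (SD, n = 3, 95% interval -1.11 to -0.78, adjusted p = 0.000254 from limma), or 1.92-fold lower than in the reference RNA. Notch3 thus passed the adjusted p and was just short of the limit of 1 log2 unit. It exceeded that limit without array 2 (-1.01), with a normexp offset of 0 (-1.37) and by Feature Extraction's own log ratio (-1.47). Without array 3 the mean of Notch3 was -0.87, and under median centring in place of loess it was -0.38. Notch4 had Cy5 intensities of 83.2, 82.0 and 71.8, and 1 of the 3 (array 3) lay above the 95th percentile of the negative controls. Its log2 ratios lay close together, at -0.23, -0.21 and -0.18 (mean -0.21 ± 0.03, SD, n = 3, limma adjusted p = 0.012), although Feature Extraction's own log ratio gave a mean of -1.05. Without array 1 its adjusted p was 0.0744 and without array 2 it was 0.0803 (limma), with ratios of -0.20 and -0.21.

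The 3 target genes, all transcriptional repressors of the basic helix-loop-helix class, did not share a direction. Hes1 had Cy5 intensities of 133.7, 129.4 and 122.9 and was higher than in the reference RNA, with log2 ratios of 0.37, 0.56 and 0.25 (mean 0.40 ± 0.16, SD, n = 3, limma adjusted p = 0.00783). All 3 arrays were above 0, and 0 of them had a reference spot above the 95th percentile of the negative controls. Hey1 was lower. Its Cy5 intensities were 127.8, 125.7 and 113.9 against 215.9, 209.2 and 175.3 in Cy3, and its log2 ratios were -1.04, -1.03 and -1.06, a mean of -1.04 ± 0.02 (SD, n = 3, 95% interval -1.15 to -0.94, adjusted p = 5.33e-05 from limma). The level of Hey1 was thus 2.06-fold lower in EpH4-PR RNA, with both channels above the 95th percentile of the negative controls on every array. Under median centring the mean was -0.64, which is below the reference RNA but inside the limit of 1. Hey2, the gene whose promoter stretch holds the GTGGGAA match shown above, was not well above background in either channel on any array, so no fold is given for it. Its measured ratios were 0.01, -0.03 and -0.02.

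Ordered by mean log2 ratio, Dll1 stood alone at the top: its lowest array (1.18) lay above the highest array of every other Notch probe. Hes1, the 2 Notch1 probes and Notch2 came next, and the ranges of neighbours in this order overlapped. Hey2 and the dim Jag1 probe followed near 0, then Notch4 and the bright Jag1 probe, whose ranges also overlapped. Jag2 (-0.45 to -0.40) overlapped neither of its neighbours, and Notch3 (-1.08 to -0.81) and Hey1 (-1.06 to -1.03) overlapped each other at the bottom. The order is one of ratios to the reference RNA and not of RNA levels among the genes. The SD between arrays was 0.12 at the median of the 12 probes, with a range of 0.02 to 0.23, against 0.09 for all probes. Array 3 gave the lowest of the 3 ratios for 9 of the 12 Notch probes (75%), and for 45.9% of the 25729 probes with both channels well above background on all arrays.

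**Figure D3:**
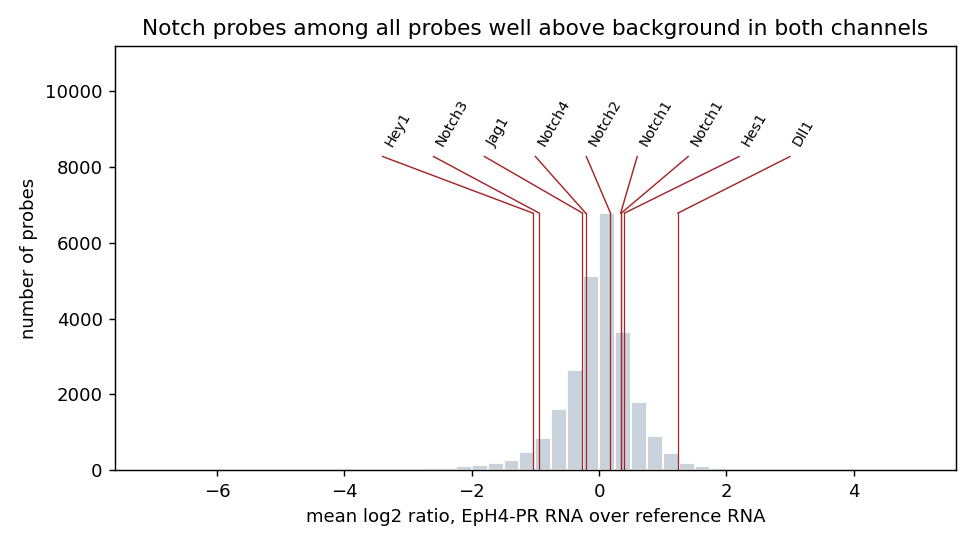
Number of probes (vertical axis) by mean log2 ratio of EpH4-PR RNA over reference RNA in bins of 0.25, for the 25729 probes with both channels well above background on all 3 arrays, where red lines mark the 9 Notch probes among them. Dll1 lies at percentile 98.3 of these probes, Hey1 at 5.3 and Notch3 at 6.3, and the other 6 lie between 25.1 and 81.3.

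The sizes of these ratios moved with the processing. Dll1 was above 1 under each of the 13 alternatives run, between 1.18 without array 1 and 2.70 by Feature Extraction's own log ratio. Hey1 was below 0 under all 13, between -1.72 and -0.64. Several of these alternatives leave the ratio itself unchanged, and leaving out 1 array could not bring Dll1 below 1 or Hey1 above 0. Median centring removes no trend of the ratio with brightness, and under it the bright probe A_51_P508510 of Notch1 was at 1.16 and passed the call, while A_52_P183088 was at 0.85. Under median centring the median ratio of probes that stood well above background in both channels was 0.42, against 0.04 with loess. Relative to that median, Dll1 was 1.31 higher (1.20 with loess), Hey1 was at -1.06 (-1.08 with loess) and the bright Jag1 probe was at 0.14 (-0.30 with loess). Hes1 was at 0.01 on that scale (0.36 with loess).

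**Figure D4:**
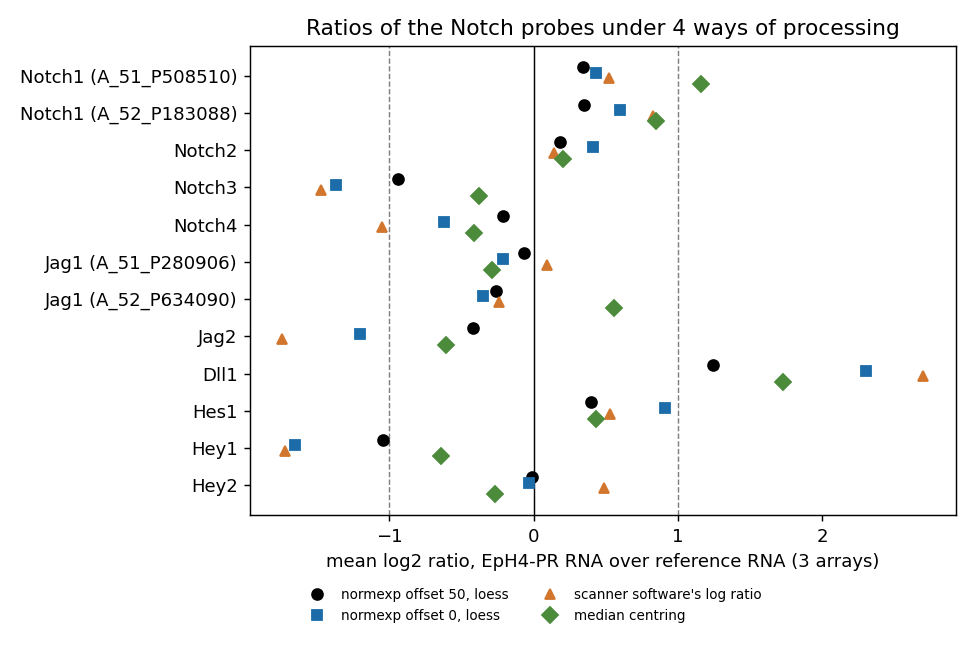
Mean log2 ratio of the 12 Notch probes over the 3 arrays under 4 ways of processing, with dashed lines at a log2 ratio of 1 either way. Dll1 is above 1 in all 4 (1.24, 2.30, 2.70 and 1.73), Hey1 and Notch3 are below 0 in all 4, and the bright Jag1 probe A_52_P634090 changes sign under median centring (0.56).

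The other genes of the pathway were taken from 8 lists by role, with 112 probes for 66 of their 67 genes. Of these 112 probes 4 were called higher and 3 lower, beside 2.25% and 3.85% of all probes, and their median log2 ratio was 0.04. At an adjusted p under 0.05 with no limit on size, 37 were higher (33.0%) and 27 lower (24.1%), beside 25.7% and 24.6% of all probes. Of the 112 probes, 96 were well above background in both channels on every array, and among all such probes the shares were 34.1% and 28.8%. The corepressors, which silence targets when Notch is off, held 4 of the 7 calls among 22 probes. Tle1, of the Groucho family that Hes proteins recruit, was higher at 2 of its 3 probes (1.71 ± 0.07 and 1.39 ± 0.06, SD, n = 3) and had 0.48 ± 0.08 at the other. Tle2, of the same family, was lower (-1.71 ± 0.08, SD, n = 3), although under median centring its ratio was -0.99. Ctbp2 was higher at 1 of 2 probes (1.19 ± 0.03, SD, n = 3) and had 0.85 ± 0.21 at the other.

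Among the other ligands, both probes of Dlk1, a Delta-like protein that lacks the domain with which the Dll and Jagged ligands bind Notch, were lower (-3.10 ± 0.10 and -1.65 ± 0.14, SD, n = 3), and 0 of the other 5 probes were called. Dll4 had a ratio of -0.11 ± 0.11 and Dll3 one of -0.03 ± 0.16 (SD, n = 3), and both were chosen for mention after their values were seen. Among 16 probes of other targets 1 was called, that of Gata3, a luminal transcription factor (1.39 ± 0.08, SD, n = 3). Hes5, a further Hes repressor, had a ratio of 0.02 ± 0.04 and the 2 probes of Heyl had 0.00 ± 0.11 and 0.19 ± 0.19 (SD, n = 3). Nrarp, which limits Notch signalling and is itself a target, was well above background in EpH4-PR RNA on all 3 arrays and in reference RNA on none. Its mean log2 ratio was 0.61 ± 0.06 (SD, n = 3, adjusted p = 0.000389 from limma). The limit computed from channel means was 1.52-fold higher in EpH4-PR RNA. It rests on the same channels as this ratio, differed little from it and is not a guaranteed minimum. Hes5, Heyl and Nrarp were also chosen after their values were seen.

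In the remaining 5 lists 0 of 67 probes passed the call, beside 6.1% of all probes called in either direction. Rbpj, the DNA-binding partner of all 4 receptors, had a ratio of -0.60 ± 0.11 (SD, n = 3, limma adjusted p = 0.000767), which became 0.70 under median centring, and it was chosen after its values were seen. The ratio farthest from 0 in each of these lists was that of Mib2, a ubiquitin ligase that helps ligands to be taken up (-0.95 ± 0.04), of Poglut1, which adds glucose to Notch (0.73 ± 0.01), of the protease gene Adam10 (-0.78 ± 0.06), of the nuclear cofactor Snw1 (-0.75 ± 0.04) and of the ubiquitin ligase gene Nedd4 (-0.74 ± 0.07, SD, n = 3 for each). Other probes of 4 of these genes gave different values: -0.35 for Poglut1, 0.18 for Adam10, 0.55 for Snw1 and 0.04 for Nedd4. The Poglut1 probe at -0.35 was well above background in EpH4-PR RNA on 0 arrays and in reference RNA on 2.

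**Figure D5:**
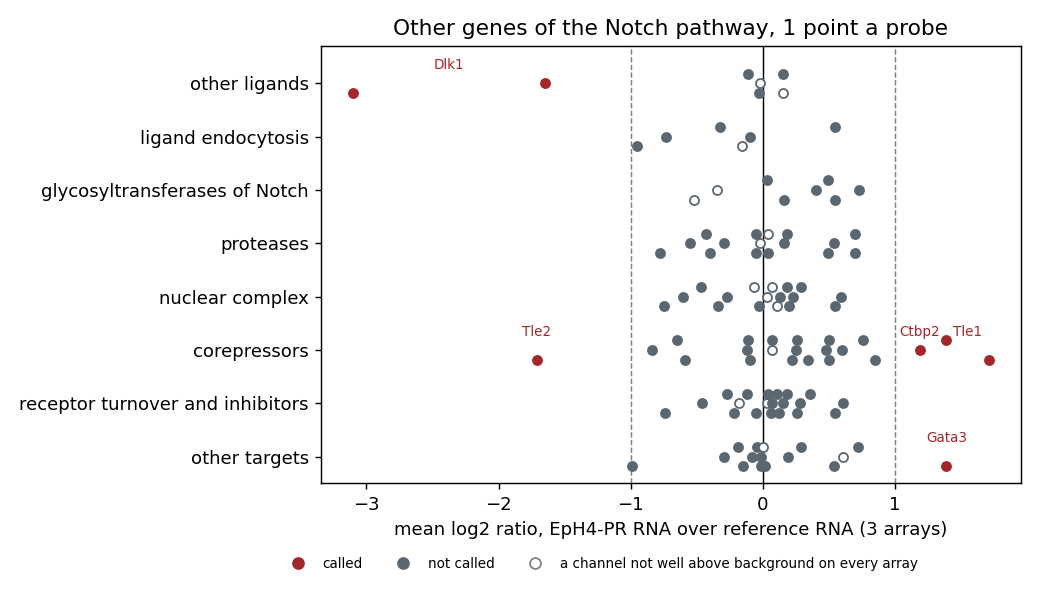
Mean log2 ratio of EpH4-PR RNA over reference RNA for the 112 probes of other Notch pathway genes, in 8 lists by role; red points passed the call and are named, and open points have a channel not well above background on at least 1 array. The 7 called probes belong to Dlk1, Tle1, Tle2, Ctbp2 and Gata3, and the other 105 lie between -0.99 and 0.85.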

How the data were processed

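The authors deposited the output of Agilent Feature Extraction 8.1.1.1 for each of 3 two-colour arrays, with 43790 spots. For each spot these deposited files hold its intensity and local background in both channels, the log10 of the Cy5 to Cy3 ratio and quality flags, with no normalization between arrays. A deposited table with the authors' fold changes, ratios, p-values and pooled intensities for 2 unnamed sides was not used. Mean spot intensities were corrected with normexp (offset 50) on the median local background in limma 3.58.1 (R 4.3.3) and normalized by loess within each array, with control spots at weight 0. Control spots and outlier spots (150, 18 and 3 on arrays 1, 2 and 3) were then left out, and spots of a probe were averaged. Each ratio was set against 0 by lmFit and eBayes, with Benjamini-Hochberg adjustment over all 41174 probes. The fit was tested on simulated data. A limit was computed from channel means after loess and Aquantile where 1 channel was well above background on none of the 3 arrays and the other on all 3. For Jag2 and Nrarp this limit rests on the same channels as the measured ratio and differed little from it, so it is not a guaranteed minimum.

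Current symbols came from RefSeq accessions (21445 of 23705 matched), then from current or older names. No coordinates are given for the probes, since the files name no genome build, and their sequences are not given here. The members, the lists and the tests were chosen with earlier results of these data known. All probes of the members were named, with the called genes of each pathway list (or the largest ratio where none was called) and the leading cell type markers. Alternatives covered the background correction, normalization, dim and outlier spots, the spot summary, the variance model, the methods' t-test and each array left out. Each slide held 1 array of the same group, so no batch could be tested.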

Additional observations from a re-analysis of the deposited data

How the results depend on the processing

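Of the 12 Notch probes, 9 kept their direction under all 13 alternatives; the exceptions were the bright Jag1 probe (0.56 under median centring), the dim Jag1 probe (0.087 with the Feature Extraction ratio and 0.0063 without replicate 3, in a range from -0.12 with each array left out) and Hey2 (0.49 with the Feature Extraction ratio). The counts of all probes, 928 higher and 1584 lower, became 3115 and 3909 with normexp offset 0, 3616 and 3887 with the Feature Extraction ratio, and 7029 and 709 under median centring, so that the share of higher calls went from 36.9% to 44.3%, 48.2% and 90.8%. Notch probes went from 1 higher to 2 under median centring, and from 1 lower to 3 with normexp offset 0, 4 with the Feature Extraction ratio and 0 under median centring; with each array left out in turn 1 or 2 were lower, the 2 being without replicate 2. Other pathway probes went from 4 higher to 10, 17 and 34 under normexp offset 0, the Feature Extraction ratio and median centring, and from 3 lower to 10 and 9 under the first pair. Median centring turned Rbpj to 0.70 and single probes of Snw1 to 0.56, Adam10 to 0.42 and Nedd4 to 0.58, and without replicate 2 the other Nedd4 probe was at -0.029, in a range up to 0.08 with each array left out. The cause of these shifts was not tested. The methods' t-test called 925 and 1583 probes before adjustment and 893 and 1552 after it. Its adjusted p was above 0.05 for Notch1 (0.177 for A_51_P508510, 0.107 for A_52_P183088), Hes1 (0.112) and the bright Jag1 probe (0.0799). It was under 0.05 for Dll1 (0.0191), Hey1 (0.0112), Jag2 (0.0164), Notch4 (0.029) and Notch3 (0.0335). In limma, A_51_P508510 also missed 0.05 with normexp offset 0 (adjusted p = 0.0757) and with the Feature Extraction ratio (adjusted p = 0.0534). Aquantile, the filter on dim probes, the intensity trend in the variance model and the methods' t-test leave ratios unchanged by construction, so they could not change a direction. Leaving out 1 array cannot change the direction of a probe with the same sign on all 3 arrays. No paired analysis was possible because all 3 arrays belong to 1 group. Low signal over background limits what can be said of Hey2, Jag2 and the dim Jag1 probe. Other ratios are limited by low signal too. Notch4 was above the 95th percentile of all negative controls on 1 array in Cy5 and on 0 in Cy3. In Cy3, Dll1 and Hes1 were above it on 0 arrays, and Notch2 and the Notch1 probe A_52_P183088 on 1.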
